A study of Glycine max with 4 samples.

Results

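The 4 soybean transcripts described here are a laccase annotated as IRX12 (Glyma18g42520.1), the microtubule-associated protein MAP70-5 (Glyma15g12490.1), the cycloartenol synthase CAS1 (Glyma20g33450.1) and a cytochrome P450 annotated as CYP83B1 (Glyma18g11820.1). They were chosen by locus, and each of the 4 loci had 1 transcript model, so they are 4 of the 55787 models of 46367 loci in the table. They belong to a list of 28 transcripts that the study selected as up-regulated in all 3 treatments against water, and they were proposed as a group of cell wall, sterol and secondary metabolism genes with their values known. Their rise against water is therefore a description of how they were chosen and was not tested. The names are those the study gave from Arabidopsis annotation, since the deposited table holds locus names alone. By their locus names the laccase and CYP83B1 are on chromosome 18, MAP70-5 on chromosome 15 and CAS1 on chromosome 20. Their models were 1506 bases (CYP83B1) to 2268 bases (CAS1) long. These lengths are close to those of coding sequences, since 95.8% of all models had a length divisible by 3.

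The study sequenced RNA of leaves from *Glycine max* seedlings, 3 weeks old by the labels and the methods although the results text gives a younger age. The seedlings were grown at 25 °C with 16 h of light and 8 h of dark and were treated with 1% NaCl plus 100 µM melatonin (NaCl+Mt), 100 µM melatonin (Mt), 1% NaCl (NaCl) or water alone (H2O). Melatonin came from a stock that was diluted in ethanol and then in water. The sources used here do not say whether the H2O and NaCl seedlings received ethanol. Melatonin and its solvent can therefore not be told apart below. Neither pooling of plants nor the time of sampling after treatment is given in these sources. The methods name the cultivar SuiNong 28 for the greenhouse plants and give no separate one for the sequenced seedlings. Each condition had 1 library, so no difference below could be checked against a second library and no p-value was computed. In bulk leaf RNA, more cells of a type and more RNA per cell cannot be told apart.

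Laccases are copper enzymes of the cell wall that oxidize monolignols, and in Arabidopsis IRX12, also known as LAC4, takes part in lignin polymerization in the xylem. MAP70 proteins bind microtubules, and in Arabidopsis MAP70-5 has been placed at the borders of the secondary wall thickenings of developing xylem vessels. Cycloartenol synthase closes the rings of oxidosqualene to give cycloartenol, from which plants make their membrane sterols. In Arabidopsis CYP83B1 oxidizes indole-3-acetaldoxime, which leads to indole glucosinolates and draws on a compound that can also lead to auxin. The name of the soybean P450 rests on sequence annotation, and glucosinolates are not a known product of soybean.

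Reads on the transcript models numbered 22908979 in H2O to 36945028 in NaCl+Mt. RPKM is the number of reads per kilobase of transcript after scaling to the mapped reads of the library, and the floor of 3 reads for a transcript of 1000 bases was an RPKM of 0.064 in NaCl+Mt to 0.103 in Mt. In each library, between 9.43% and 11.5% of the transcripts that had reads carried a deposited RPKM of 0, and no rule for this is given in the sources used here. All 4 members were listed at 0 in H2O, although 3 of them had reads there. For this reason levels are given with the read counts, ratios between libraries were taken from the reads scaled by library total, and intervals are 95% intervals that cover counting error only. The leaf identity of the libraries was checked with *rbcS*, the small subunit gene of Rubisco (Glyma13g07610.1), which had an RPKM of 2781 in NaCl+Mt, 5644 in Mt, 3529.5 in NaCl and 1019 in H2O. It was thus abundant in every library, and it was also higher in the 3 treated libraries than in H2O, as were *PsaF* and *PsbO* of the photosystems. Whether this has a part in the differences below was not tested.

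The laccase transcript was high in the NaCl library alone. It had 65 reads in NaCl+Mt, 32 in Mt, 606 in NaCl and 0 in H2O, with RPKM of 0.825, 0.655, 9.96 and 0 in the same order. In NaCl its level was above that of 72.8% of all transcript models, and in NaCl+Mt above 31.8%. In H2O the floor of 3 reads corresponds to an RPKM of 0.0611 for this transcript. Against that floor, and leaving aside the counting error of the other library, the laccase was at least 163-fold higher in NaCl, at least 13.5-fold higher in NaCl+Mt and at least 10.7-fold higher in Mt. The NaCl+Mt and Mt libraries were not separated, with a ratio of 1.26 (0.813 to 1.99).

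MAP70-5 was the member with a high level in both Mt and NaCl. It had 118 reads in NaCl+Mt, 472 in Mt, 759 in NaCl and 7 in H2O, and the deposited RPKM were 1.47, 9.46, 12.2 and 0. From its 7 reads the level in H2O would be an RPKM of 0.140 (0.0561 to 0.288). The ratio to H2O was 10.5 for NaCl+Mt (4.94 to 26.7), 67.8 for Mt (32.6 to 169) and 87.5 for NaCl (42.3 to 218). Mt and NaCl were close to each other, at a ratio of 0.774 (0.689 to 0.87). When both agents were given together the level was well below that with either alone.

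CAS1 had the highest RPKM of the 4 in the NaCl library. Its reads numbered 519 in NaCl+Mt, 83 in Mt, 1244 in NaCl and 3 in H2O, and its RPKM was 4.88, 1.26, 15.1 and 0. The level in NaCl exceeded that of 81.2% of all models. The ratio to H2O was 108 for NaCl+Mt (36.7 to 525), 27.8 for Mt (9.19 to 138) and 335 for NaCl (114 to 1625), and the width of these intervals comes from the 3 reads in H2O. Among the treated libraries the order was NaCl, NaCl+Mt, Mt, and no 2 neighbours in it had overlapping counting intervals.

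CYP83B1 was the least abundant of the 4 in NaCl and in Mt. It had 70 reads in NaCl+Mt, 21 in Mt, 270 in NaCl and 1 in H2O, with RPKM of 0.991, 0.479, 4.95 and 0. The ratio to H2O was 43.6 for NaCl+Mt (7.58 to 1748), 21.1 for Mt (3.39 to 873) and 218 for NaCl (38.8 to 8638). It shared the order of CAS1, and its level in NaCl+Mt was 2.07 times that in Mt (1.25 to 3.55).

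**Figure D1:**
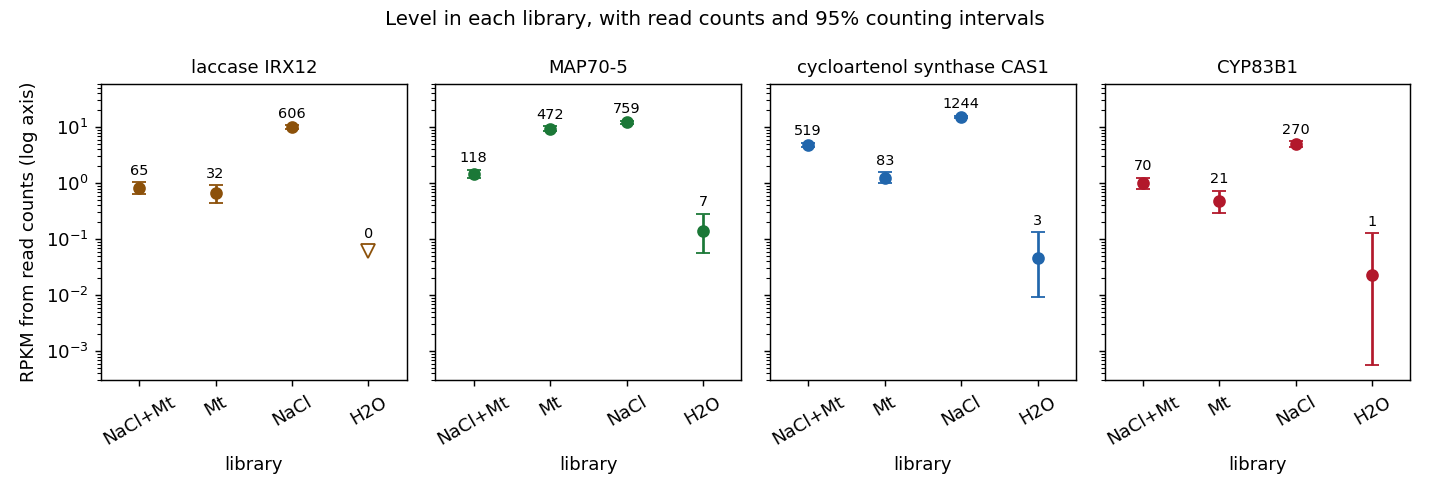
RPKM computed from the read counts (log axis) for the 4 transcripts in the 4 libraries, with 95% counting intervals and the read count above each point. The open triangle stands at the floor of 3 reads for the laccase in H2O, where it had 0 reads. In each panel NaCl is the highest library and H2O the lowest, and MAP70-5 is also high in Mt.

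All 4 members thus had their highest level in NaCl and their lowest in H2O. This order was found in 5.68% of the 42311 transcripts with an RPKM of at least 1 in any library, and the choice of members used both libraries. Summed over the 4 members, the deposited RPKM was 8.16 in NaCl+Mt, 11.8 in Mt, 42.3 in NaCl and 0 in H2O. The make-up of the sum differed between the treated libraries. MAP70-5 held 18% of it in NaCl+Mt, 79.8% in Mt and 28.9% in NaCl. CAS1 held 59.8% in NaCl+Mt, 10.6% in Mt and 35.8% in NaCl. In H2O the 4 members had 11 reads together, too few for such shares.

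Up- or down-regulation was called at a fold of 2 or more between the RPKM + 0.1 of a pair of libraries, provided that the RPKM reached 1 in either of them. With NaCl alone, all 4 members were up-regulated against H2O, where 7.31% of the 38405 transcripts tested were up- and 11.4% down-regulated. With melatonin alone, MAP70-5 and CAS1 were up-regulated, where 21.2% of 41781 transcripts were up- and 12.5% down-regulated. In NaCl+Mt the same 2 members were up-regulated against H2O, where 4.92% of 38305 transcripts were up- and 3.62% down-regulated. These calls rest on the contrasts that chose the members, so nothing is read from their number. The laccase and CYP83B1 stayed outside the call in Mt and in NaCl+Mt because their RPKM was under 1. CYP83B1 lay just outside it with 0.991 in NaCl+Mt, CAS1 just inside it with 1.26 in Mt. With RPKM recomputed from the counts and their sum, or with no filter, all 4 members were up-regulated in NaCl+Mt:H2O, and with median-of-ratios scaling 3 were.

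The comparison of NaCl+Mt with NaCl asks what melatonin, together with its solvent, changes when salt is present. All 4 members were lower in NaCl+Mt and all 4 were called down-regulated, where 4.43% of 38389 transcripts were down- and 9.86% up-regulated. For the laccase the 65 reads in NaCl+Mt and 606 in NaCl gave a ratio of 0.0829 (0.0631 to 0.107). MAP70-5 had a ratio of 0.12 (0.0981 to 0.146). The ratio of CYP83B1 was 0.2 (0.152 to 0.261). CAS1 was the member that kept most of its level, with a ratio of 0.322 (0.29 to 0.357). On the log2 scale of RPKM + 0.1, where 0 means no difference, the values were -3.44 for the laccase, -2.97 for MAP70-5, -2.21 for CYP83B1 and -1.61 for CAS1, and the median over all transcripts tested was 0.05. The NaCl library is shared with the contrast that helped to choose the members for a high level in it, so this direction is not independent of the choice.

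The comparison of NaCl+Mt with Mt asks what salt changes when melatonin is present, and here the members did not go the same way. CAS1 was up-regulated, with a ratio of 3.88 (3.07 to 4.95), where 10.4% of 41573 transcripts were up-regulated. MAP70-5 was down-regulated, with a ratio of 0.155 (0.126 to 0.19), where 19.4% were down-regulated. CYP83B1 and the laccase did not reach an RPKM of 1 in either library and were not called. MAP70-5 also stood apart when Mt was set against NaCl, a ratio added after the values had been seen. In that comparison the laccase had a ratio of 0.0658 (0.0446 to 0.0938), CAS1 0.0831 (0.0657 to 0.104) and CYP83B1 0.0968 (0.059 to 0.151), whereas that of MAP70-5 was 0.774. The counting intervals of the 3 other members overlapped each other, and that of MAP70-5 overlapped none of them.

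**Figure D2:**
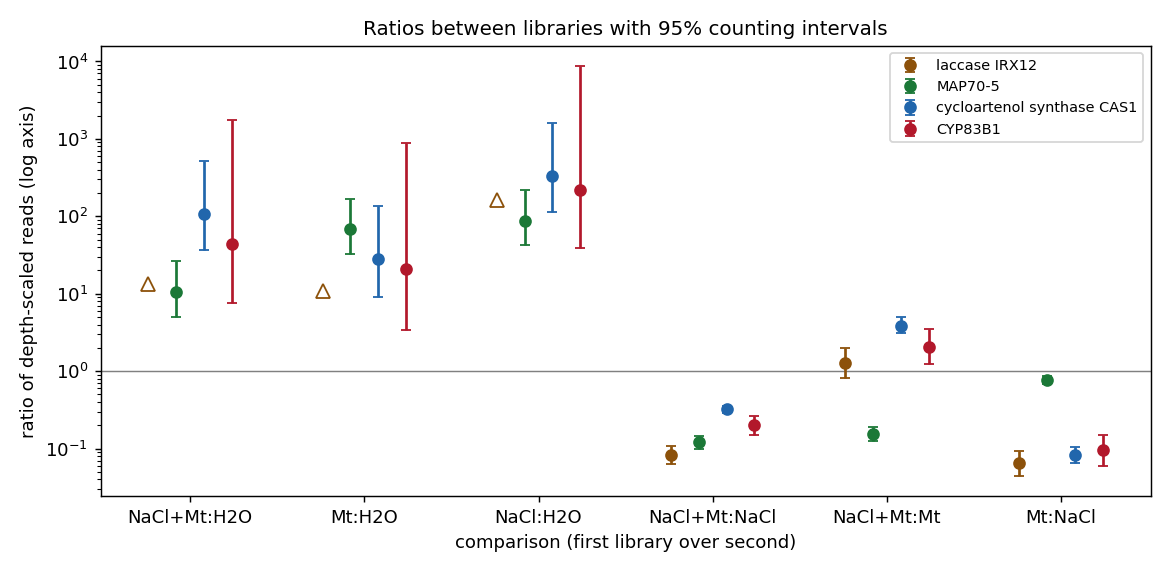
Ratios of depth-scaled reads (log axis) with 95% counting intervals for the 4 transcripts in 6 comparisons, first library over second. Open triangles are lower bounds for the laccase against the floor of 3 reads in H2O. They leave aside the counting error of the other library. All points are below 1 in NaCl+Mt:NaCl, while in NaCl+Mt:Mt and Mt:NaCl the points of MAP70-5 lie apart from those of the 3 other members.

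Each member had a higher value in Mt than in H2O and a lower value in NaCl+Mt than in NaCl, although the laccase and CYP83B1 were not called in the first of these comparisons. The members were chosen for being low in H2O and high in the treated libraries, which pushes the difference between these comparisons below 0, so it is a description. On the scale of deposited RPKM + 0.1, the log2 value of melatonin with salt minus that without salt was -6.36 for the laccase, -9.55 for MAP70-5, -5.38 for CAS1 and -4.74 for CYP83B1. All 4 values depend on the pseudocount, because all members were listed at 0 in H2O. Over the alternatives the value lay between -9.63 and -3.31 for the laccase, -12.94 and -5.81 for MAP70-5, -8.62 and -2.63 for CAS1, and -7.92 and -2.14 for CYP83B1. For MAP70-5, with 7 reads in H2O, RPKM recomputed from the counts with the implied library totals gave -8.29. Over the 42311 transcripts with an RPKM of at least 1 in any library, the median of this difference was -0.03, and 25.4% had a higher value in Mt than in H2O together with a lower value in NaCl+Mt than in NaCl. Because of the choice of members, nothing is read from this about them. Under median-of-ratios scaling the median log2 of all transcripts shifted by 0.12 in NaCl:H2O and by less than 0.1 in the other comparisons. No member changed direction under it.

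The 28 transcripts of the study's list give the nearest company of the 4 members. Since the study chose that list on these libraries, it is not independent evidence of a direction. Of the 28, 14 had their highest RPKM in NaCl and 14 in Mt, and all 4 members were among the first 14. In NaCl:H2O the members ranked 3rd (CAS1), 4th (MAP70-5), 6th (laccase) and 7th (CYP83B1) of the 28 by log2 value. In Mt:H2O MAP70-5 ranked 2nd, and CAS1, the laccase and CYP83B1 ranked 17th, 23rd and 24th. In NaCl+Mt:NaCl 27 of the 28 passed the filter, 9 were down-regulated and none was up-regulated, beside 4.43% down and 9.86% up over all transcripts. The 9 were the 4 members and 5 of the 24 others, and each of the 9 had its highest level in NaCl. The 5 others had log2 values from -6.3 to -2.05 and were *RD22* (Glyma04g35130.1), a dehydration-responsive gene, a CER1 protein (Glyma03g24320.1), a SEC14 family protein (Glyma04g11370.1) and 2 lipid transfer family proteins (Glyma07g16770.1 and Glyma18g41320.1). In NaCl+Mt:Mt 26 of the 28 passed the filter, 15 were down- and 1 up-regulated, beside 19.4% down and 10.4% up over all transcripts. The 1 up-regulated transcript was CAS1, which had the highest log2 value of all 28, at 1.87. CYP83B1 followed at 0.91, and MAP70-5, among the 15 down-regulated, ranked 26th at -2.61.

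**Figure D3:**
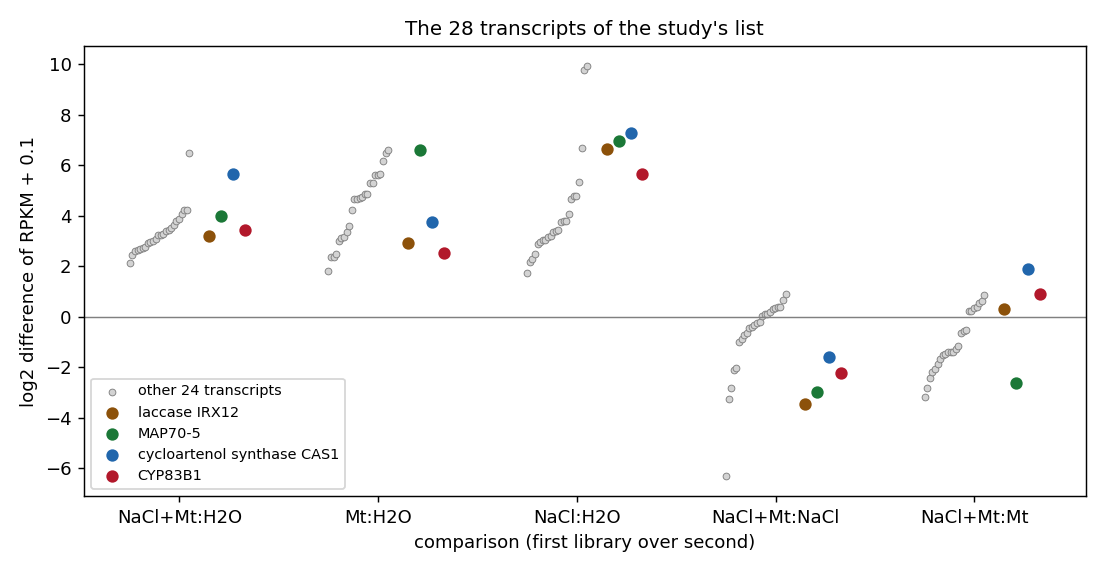
Log2 differences of RPKM + 0.1 in 5 comparisons for the 28 transcripts of the study's list, with the 4 members in colour and the 24 others in grey. Against H2O every point is above 0. In NaCl+Mt:NaCl the 4 members lie between -3.44 and -1.61, and in NaCl+Mt:Mt MAP70-5 is at -2.61 and CAS1 at 1.87.

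Other cell wall loci of the study's annotation table, 24 loci for pectin, cellulose and xylan enzymes, were counted beside the laccase and MAP70-5, each represented by its most abundant transcript. The study chose them on these libraries too. In Mt:H2O, 23 of the 24 passed the RPKM filter, 22 were up-regulated and none was down-regulated, beside 21.2% up and 12.5% down over all transcripts, with a median log2 of 3.03 against 0.05 over all transcripts tested. In NaCl:H2O 15 of the 24 passed the filter, of which 3 were up- and 3 down-regulated, beside 7.31% up and 11.4% down over all transcripts. Their median was 0, which 6 loci at exactly 0 helped to set. In NaCl+Mt:NaCl 16 passed, of which 5 were up-regulated and none was down-regulated, beside 9.86% up and 4.43% down. The most abundant of them was a pectinesterase annotated as ATPMEPCRB like (Glyma19g40020.1), an enzyme that removes methyl groups from pectin, with RPKM of 2.05 in NaCl+Mt, 79.9 in Mt, 2.57 in NaCl and 1.37 in H2O. The next were 2 pectin methylesterase loci. Glyma07g05150.1 had RPKM of 10.8 in NaCl+Mt, 54 in Mt, 1.87 in NaCl and 10.4 in H2O. Glyma16g01650.1 had 6.33, 39.5, 3.06 and 4.26 in the same order. All 3 were thus highest in Mt, whereas the laccase had its highest level in NaCl and MAP70-5 was high in both.

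Phenylalanine and tryptophan, which plants make through the shikimate pathway, feed lignin precursors and indole compounds. The same annotation table has 7 loci of aromatic amino acid metabolism, of which *TAT* encodes a tyrosine aminotransferase that uses tyrosine rather than a step of the shikimate pathway. In Mt:H2O 5 of the 7 passed the RPKM filter and all 5, *TAT* among them, were up-regulated, beside 21.2% of all transcripts. In NaCl:H2O 3 passed, of which 1 was up- and 1 down-regulated, beside 7.31% up and 11.4% down over all transcripts. In NaCl+Mt:NaCl 3 passed and 1 was up-regulated, beside 9.86%. The shikimate kinase *aroK* (Glyma04g39700.3) had RPKM of 3.27 in NaCl+Mt, 12.7 in Mt, 2.58 in NaCl and 2.02 in H2O. The tryptophan synthase gene *trpB* (Glyma11g00580.1) had 6.85 in NaCl+Mt, 10.1 in Mt and 3.03 in H2O and was listed at 0 in NaCl. The anthranilate synthase gene *trpE* (Glyma18g03270.1) had 1.42 in NaCl+Mt, 11.8 in Mt, 1.28 in NaCl and 0.344 in H2O. None of these 3 loci had its highest level in NaCl.

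The transcripts whose profiles were most like those of the members were sought among the 39146 transcripts whose mean RPKM reached 1, by the Euclidean distance between centred log2(RPKM + 1) values over the 4 libraries. With 4 libraries many profiles can be close, so these are descriptions. The added 1 also shrinks fold differences at low RPKM, so a near profile can have a much smaller fold than the member. Nearest to the laccase was Glyma17g32080.1 at a distance of 0.313, with RPKM of 4.67 in NaCl+Mt, 5.58 in Mt, 33.5 in NaCl and 2.05 in H2O, and next was Glyma13g44020.1 at 0.555. Nearest to MAP70-5 was Glyma09g07310.1 at 0.619, with RPKM of 4.74 in NaCl+Mt, 40.5 in Mt, 30.5 in NaCl and 1.96 in H2O. The second was Glyma06g45700.1 at 0.63, which was much more abundant, with 147 in NaCl+Mt, 406 in Mt, 479 in NaCl and 54.9 in H2O. Nearest to CAS1 were Glyma03g33760.1 at 0.805 and Glyma14g07760.1 at 0.811. The first of these had RPKM of 191 in NaCl+Mt, 83.9 in Mt, 291 in NaCl and 24.1 in H2O. Nearest to CYP83B1 were Glyma17g13720.1 at 0.147 and Glyma06g15990.1 at 0.222. Here the first had 8.92 in NaCl+Mt, 7.13 in Mt, 32.9 in NaCl and 4.55 in H2O. Among the members themselves the laccase and CYP83B1 were the closest pair by this distance, at 0.78. Both had an RPKM under 1 in NaCl+Mt and in Mt, where the added 1 shrinks differences most. The laccase and CAS1 were 1.24 apart, and MAP70-5 was between 2.12 and 2.54 from the others.

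Locus numbers in this naming run along the chromosome, so the 3 loci on either side by number give the neighbourhood of each member. They are the nearest loci with values here, and other numbered loci may lie between. Their numbers differed from that of the member by -160 to 50. This check was added after the members' values had been seen. Of the 24 flanking loci, 16 passed the RPKM filter in NaCl:H2O, and none was called up- or down-regulated, where 7.31% and 11.4% of all transcripts were. In NaCl+Mt:NaCl 15 passed the filter and 2 were down- and none up-regulated, beside 4.43% down and 9.86% up over all transcripts. In Mt:H2O 17 passed and 2 were up- and 5 down-regulated, beside 21.2% up and 12.5% down. Beside the laccase, Glyma18g42530.1 had 134 reads in NaCl+Mt, 254 in Mt, 223 in NaCl and 201 in H2O. Beside MAP70-5, Glyma15g12480.1 had 165 reads in NaCl+Mt, 51 in Mt, 217 in NaCl and 112 in H2O. These neighbours were well covered in H2O, where the members had 0 and 7 reads. Beside CAS1, Glyma20g33440.1 had 1 read in NaCl+Mt, 4 in Mt, 8 in NaCl and 0 in H2O, too few to be read as a difference. Beside CYP83B1, Glyma18g11840.1 had 10 reads in NaCl+Mt, 2 in Mt, 11 in NaCl and 14 in H2O.

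**Figure D4:**
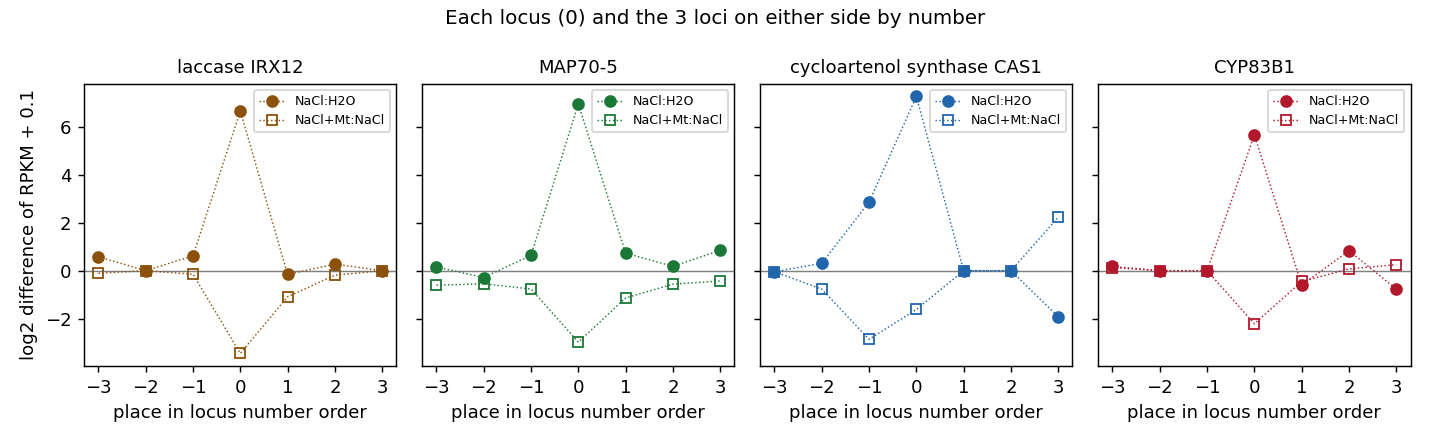
Log2 differences of RPKM + 0.1 for each member (place 0) and the 3 loci on either side in the order of locus numbers, in NaCl:H2O (filled circles) and NaCl+Mt:NaCl (open squares). In NaCl:H2O the members stand at 6.65 (laccase), 6.94 (MAP70-5), 7.25 (CAS1) and 5.66 (CYP83B1), and the flanking loci lie between -1.92 and 2.86, with both of those ends beside CAS1 at loci with few reads.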

How the data were processed

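Leaf RNA libraries of 4 conditions, 1 library each, were made with an Illumina kit and sequenced on an Illumina HiSeq. Per the methods, the authors trimmed adaptors, discarded reads of low quality and aligned the rest with BWA 0.7.4 against the soybean genome, while the genome build and the counting tool are not given in the sources used here. Each row of the deposited table gives a transcript model with its length and, per library, the raw count of mapped reads and the RPKM, which the authors computed from that count. The library totals implied by the deposited RPKM were 46886159 in NaCl+Mt, 29090310 in Mt, 36222074 in NaCl and 29231289 in H2O. In the study's definition of RPKM, only reads that map to a single place enter the count and the divisor, but these implied totals are close to the study's totals of all mapped reads. Whether the deposited counts hold unique reads alone was therefore not settled, and soybean has many duplicated genes, so each count may include or lack reads of a copy.

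A pseudocount of 0.1 was added to the deposited RPKM before log2 differences were taken, which can understate changes of low transcripts and overstate those of transcripts with reads but a listed 0. Calls needed a fold of at least 2 and an RPKM of at least 1 in 1 library. Count intervals are exact Poisson intervals, and intervals of ratios are exact conditional binomial intervals, at 95%. They cover counting error only, because 1 library per condition gives no spread between plants or libraries. PCR copies could not be told from separate molecules, so the intervals may be too narrow even for counting error. A ratio to a count of 0 used a floor of 3 reads. With 1 library per condition no test was made. Calls and intervals were checked on simulated counts with Poisson error only, which the intervals assume, and with changes placed in well covered transcripts. That check does not cover transcripts with very few reads in a library, as the members had in H2O. It also leaves out reads listed at an RPKM of 0. Python 3.11.15, pandas 2.3.3, SciPy 1.17.1 and matplotlib 3.10.9 were used.

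All transcripts of the 4 loci are named. Of the cell wall and the aromatic amino acid list the 3 loci with the highest mean RPKM are named, and for each member the 2 transcripts with the nearest profile. The lists are the 28 transcripts of the study's own list and the cell wall and aromatic amino acid loci of its annotation table. Other transcripts of the study's list are named because they were called down-regulated in NaCl+Mt:NaCl, which was decided after their values were seen. The members and lists were chosen with earlier results of these data known. Lists by product name, paralogues and sequences were not used here, because the reference table at hand (Glycine_max_v4.0) does not pair these locus names with products. Alternatives were pseudocounts of 0.01 and 1, median-of-ratios scaling, calls without the RPKM filter, with a minimum RPKM of 5 or with a minimum fold of 4, RPKM recomputed from the counts and their sum, counts summed per locus and, added after seeing the data, RPKM recomputed from the counts with the implied totals. Each member locus had 1 model, so counts summed per locus and the implied totals gave the members the same values.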

Additional observations from a re-analysis of the deposited data

Results flagged for a closer look

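The log2 difference of melatonin against no melatonin had opposite signs without and with salt for all 4 members, and this difference was not tested, since each condition had 1 library. The value with salt minus that without salt was -6.36 for the laccase IRX12, -9.55 for MAP70-5, -5.38 for CAS1 and -4.74 for CYP83B1. These values rest on an RPKM listed at 0 in H2O and lay, over the alternatives, between -9.63 and -3.31 for the laccase, -12.94 and -5.81 for MAP70-5, -8.62 and -2.63 for CAS1, and -7.92 and -2.14 for CYP83B1. The choice of members for low values in H2O pushes them below 0. For MAP70-5 the effect of salt also had opposite signs, with a log2 of -2.61 in NaCl+Mt:Mt and 6.94 in NaCl:H2O, which in a layout of 4 libraries gives the same difference of -9.55.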

How the results depend on the processing

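The number of members up-regulated in NaCl+Mt:H2O was 2, and it was 4 with RPKM recomputed from the counts and their sum, 4 with no filter, 3 with median-of-ratios scaling and 0 with a filter of RPKM 5. In Mt:H2O it was 2, against 4 with no filter and 1 with a filter of RPKM 5. In NaCl+Mt:Mt the 1 up-regulated member was CAS1, and 0 were called with a filter of RPKM 5 or a fold of at least 4. The count of 4 up-regulated in NaCl:H2O fell to 3 with a filter of RPKM 5. That of 4 down-regulated in NaCl+Mt:NaCl fell to 3 with a filter of RPKM 5 and to 3 with a fold of at least 4. Both counts were 4 under every other alternative run. Of 144 values of members under alternatives, log2 values and the differences of melatonin with and without salt, 0 reversed. A change of pseudocount cannot reverse a single comparison, so nothing is read from this. Of the 144, 103 stayed within the counting error and 41 moved beyond it, of which 35 involved the H2O library. The counting error is wide where H2O has few reads. The laccase in NaCl:H2O counted as staying, although its log2 lay between 3.45 and 9.96. Counts summed per locus and the implied totals gave the members the same values, so these enter under both. The pseudocount moved the values most. In NaCl:H2O the value of CAS1 lay between 4.01 and 10.6, and in NaCl+Mt:NaCl, without H2O, between -1.67 and -1.46. For MAP70-5, whose 7 reads in H2O were listed at 0, the value in Mt:H2O was 6.58 and lay between 3.39 and 9.89. Over the whole table the calls were fewest at a fold of at least 4 and most with no filter, for instance 698 to 4180 up-regulated in NaCl:H2O against 2806, 5110 to 10622 up-regulated in Mt:H2O against 8872, and 321 to 2660 down-regulated in NaCl+Mt:NaCl against 1702. No paired analysis was possible because each condition had 1 library, and for the same reason no replicate could be left out. The precision against H2O is limited by the 0 to 7 reads of the members there.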
